A study of Mus musculus with 18 samples.

Results

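The genes described here are 10 components of the Hippo pathway and its transcription factors: the co-activators Yap1 and Wwtr1 (TAZ), the DNA-binding factors Tead1, Tead2, Tead3 and Tead4, the kinases Lats1 and Lats2, and the angiomotins Amot and Amotl2. They were chosen by name for their place in the pathway, with earlier results of these data known, so counts of how many changed are not independent evidence. All 10 were present among the 46078 gene rows of the count table and passed the filter on low counts, as did 13438 of 21519 protein-coding genes. RNA was sequenced from wild-type E14 mouse embryonic stem cells (mESCs, an established line of 129 background). They had spent 24 h on fibronectin-coated StemBond hydrogels in medium with serum and LIF, a cytokine that sustains self-renewal. StemBond gels are polyacrylamide made with AHA (6-acrylamidohexanoic acid), a co-factor whose concentration sets how strongly matrix protein is tethered to the gel. Soft gels had a modulus near 750 Pa and stiff gels near 160 kPa, and AHA was low (16 mM), mid (48 mM) or high (80 mM), which gave 6 groups of 3 libraries. No group was grown on plastic, and all cells carried the same genotype and saw the same medium, coating and time in culture.

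In the Hippo pathway, the MST kinases and their partners activate LATS1 and LATS2, which phosphorylate YAP and TAZ and thereby hold them in the cytoplasm or mark them for degradation. When they are not phosphorylated, YAP and TAZ enter the nucleus and act with TEAD factors on genes of growth, adhesion and the cytoskeleton. The pathway is a well-known sensor of cell shape and of the stiffness of the matrix, and it acts largely through protein phosphorylation and location, which transcript counts do not show. In the early mouse embryo it helps to separate trophectoderm from inner cell mass, and TEAD4, YAP and the angiomotins are its best known actors there. LATS2 and AMOTL2 are at once inhibitors of YAP and products of YAP target genes.

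TEAD factors recognise a core of 6 bases, GGAATG, which reads CATTCC on the other strand. RefSeq promoter windows (GRCm38.p6, 250 bases before to 50 after a transcription start) were searched for it on both strands, and windows were at hand for 8 of the 10 genes, that is all but Tead1 and Tead4. The core was found in 5 of these 8 genes (Yap1, Wwtr1, Tead3, Lats2 and Amotl2), against 16.6% of all genes with a window and 14.7% of all windows of 300 bases. It was found in 7 of the 12 windows of these genes, at 8 distinct places, of which 5 lay in exons of GENCODE M21, all in UTR. The stretches before the starts of Yap1 and Wwtr1 are shown because these genes encode the partners of TEAD and hold the core outside any annotated exon. The Yap1 stretch is chr9:8004597-8004846 on the minus strand, with the core beginning 141 bases before the start. The Wwtr1 stretch is chr3:57575911-57576160 on the minus strand, with the core beginning 136 bases before the start. Both are written 5′ to 3′ with the core in capitals.
Yap1: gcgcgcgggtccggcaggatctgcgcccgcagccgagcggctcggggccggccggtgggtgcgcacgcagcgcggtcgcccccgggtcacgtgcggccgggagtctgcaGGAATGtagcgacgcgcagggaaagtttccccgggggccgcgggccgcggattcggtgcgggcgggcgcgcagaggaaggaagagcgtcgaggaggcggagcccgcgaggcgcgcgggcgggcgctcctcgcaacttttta
Wwtr1: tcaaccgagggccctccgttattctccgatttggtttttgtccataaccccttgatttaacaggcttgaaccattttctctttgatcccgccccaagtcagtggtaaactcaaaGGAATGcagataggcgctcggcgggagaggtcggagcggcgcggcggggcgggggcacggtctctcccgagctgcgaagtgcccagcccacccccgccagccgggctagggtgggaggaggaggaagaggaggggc

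The sites of Amotl2, Lats2 and Tead3 are shown because these genes were lower on soft gels. That of Amotl2 (chr9:102717727-102717756, plus strand) lies 65 bases before the RefSeq start, in an exon of other GENCODE transcripts of the gene. That of Lats2 (chr14:57746102-57746131, minus strand) begins at base 5 of the transcript, in the UTR. That of Tead3 (chr17:28350970-28350999, minus strand) lies 182 bases before a RefSeq start and outside GENCODE exons, and the other 3 places in Tead3 lay in its UTR. Each is given as 30 bases with the core in capitals, and binding was not measured.
Amotl2: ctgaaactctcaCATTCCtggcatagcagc
Lats2: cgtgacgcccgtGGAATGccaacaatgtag
Tead3: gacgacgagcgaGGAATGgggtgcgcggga

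The libraries held 5850621 to 9290261 gene counts, and the 10 genes were read at least 136 times in every library tested. The share of ERCC spike-in reads was 0.607 to 0.725% in 17 libraries. In soft, high AHA replicate 1 it was 1.37% (95% Wilson interval 1.36 to 1.38%, counting error only), so that library was left out of the tests, as the study did with libraries rich in ERCC reads. This left 8 soft and 9 stiff libraries. Of 8 markers of embryonic stem cells, all were expressed, and 7 were called higher on soft. The one not called was Pou5f1, at 551 CPM on soft and 540 CPM on stiff gels. The summed CPM of the list was 1950 to 2123 on soft and 1718 to 1876 on stiff gels. Counts of called markers in every list here are to be read against all tested genes, of which 3.77% were called higher and 4.82% lower. CPM is the usual depth-scaled count of a gene, with TMM factors from the tested genes. Of 5 tested markers of fibroblasts, 1 (Col1a1) was called lower on soft, and the summed CPM of the list was 116 to 197 on soft and 167 to 239 on stiff. The fibroblast markers Dcn and Lum never exceeded 4 and 2 counts. Others of the list were expressed: Col1a1 averaged 109 CPM on soft and 155 CPM on stiff gels. Col1a2 averaged 21.3 and 23.8 CPM, and Col3a1 9.59 and 9.87 CPM. Of 5 tested trophoblast markers, Tfap2c was called higher and Hand1 lower on soft, and the summed CPM was 176 to 201 on soft and 170 to 193 on stiff. None of the 6 primitive endoderm, 2 mesoderm and 2 neural markers tested was called by edgeR at an adjusted p under 0.05 or by DESeq2, and 1 of them, a neural one, had an unadjusted p under 0.05. The part of these markers in the differences below was not tested.

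Per kb of exon length, with all annotated exons of a gene merged, the levels of the 10 genes spanned a wide range. The order of the genes and the TEAD shares below depend on this choice of length. Amotl2 was highest, with a median of 75.1 CPM per kb over the 17 libraries (range 64.5 to 82.7). Tead1 followed at 25.1 (23.2 to 28.5), Yap1 at 23.6 (22.5 to 26.4) and Tead2 at 20.7 (19.2 to 22.5). The ranges of Tead1 and Yap1 overlapped, and those of Yap1 and Tead2 met at their edges. Wwtr1 stood at 13.4 CPM per kb (11.7 to 15.2), below every library of Tead2. Amot and Tead4 could not be ordered, at 9.48 (7.96 to 11.8) and 9.38 (7.75 to 11.5). Lats1 at 5.80 (4.97 to 6.41), Tead3 at 4.81 (3.85 to 6.10) and Lats2 at 4.77 (3.58 to 6.15) were lowest and overlapped each other. Yap1 varied least between libraries (coefficient of variation 3.86%) and Lats2 most (16.7%). The plot of CPM in each library shows both the small range of Yap1 and the step of Amotl2 between the gels.

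**Figure D1:**
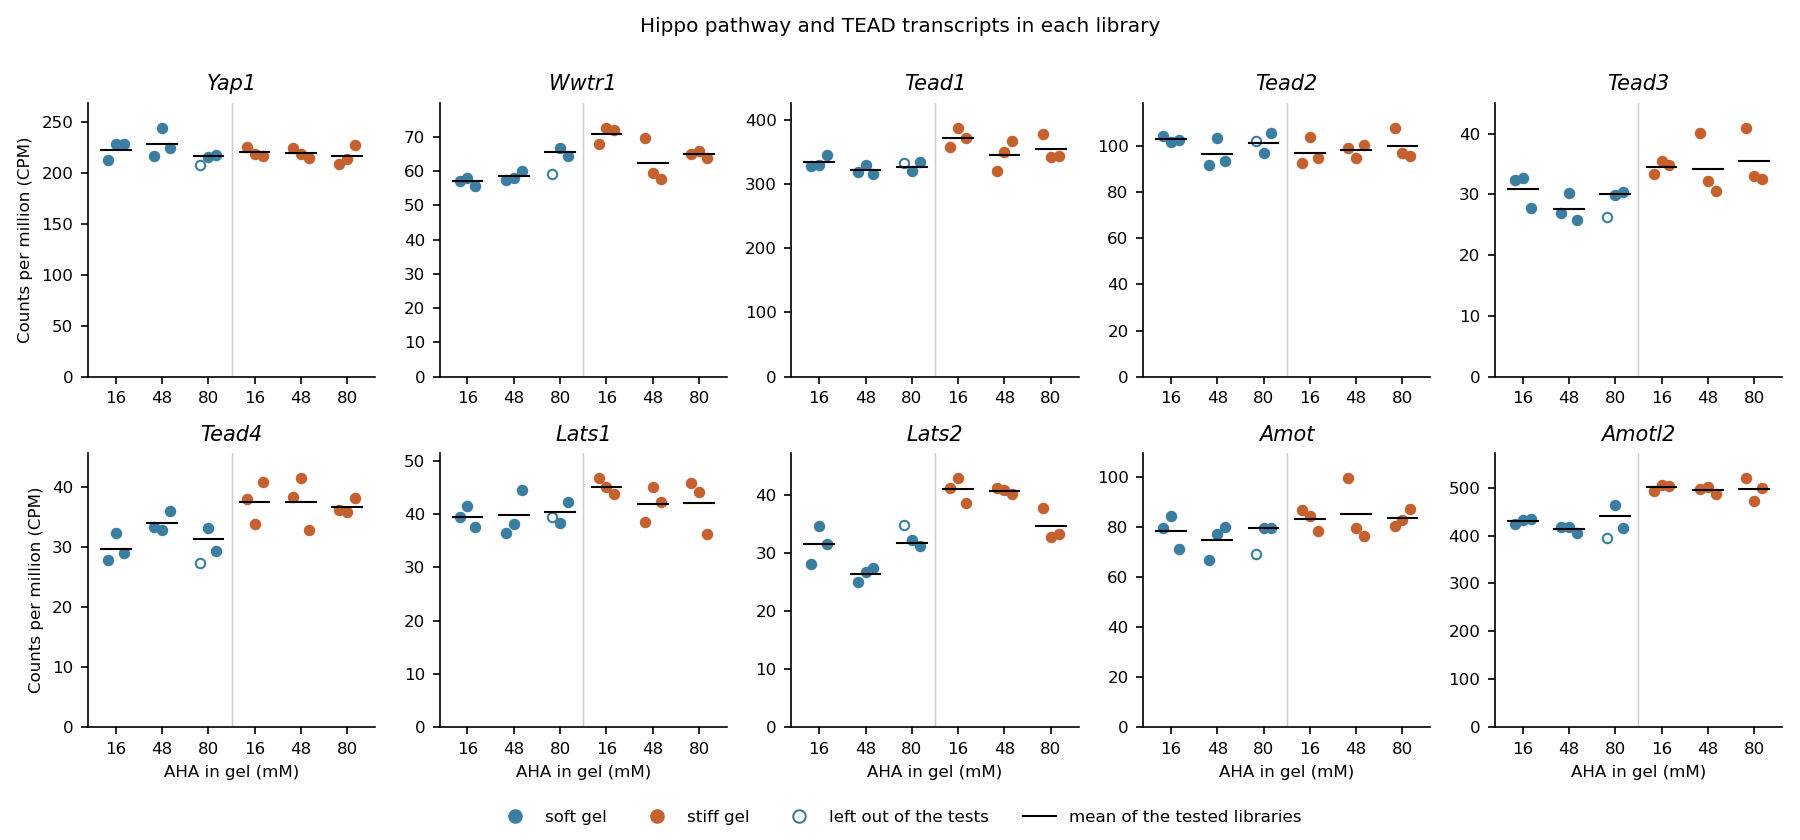
CPM of the 10 genes (y axis, from 0, a scale for each gene) in each library, by AHA concentration in mM (x axis). Blue points are soft and orange points stiff gels, black bars are means of the tested libraries and the open point is the library left out. All 8 tested soft libraries of Amotl2 lie at or below 464 CPM and all 9 stiff libraries at or above 472 CPM, and the Yap1 points of both gels overlap.

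Transcripts of several pathway components were lower on soft than on stiff gels. When the differences between soft and stiff gels were averaged over the 3 AHA concentrations, 5 of the 10 genes were called lower on soft (Amotl2, Lats2, Tead1, Tead3 and Tead4) and 0 higher, at an adjusted p under 0.05 over all tested genes with edgeR. In the same comparison 4.82% of all tested genes were called lower and 3.77% higher (8.59% in either direction). The log2 difference was below 0 in 8 of the 10 genes, with a median of -0.13, while it was below 0 in 49.7% of all tested genes, with a median of 0.0011. At an unadjusted p under 0.05 stood 7 of the 10 genes and 20.5% of all tested genes. In this average the largest difference of the 10 genes was that of Lats2, a fall by 23.0%, and at mid AHA alone Lats2 fell by 35.2%. The labels do not say that the 3 libraries of a group came from separate cultures, so p-values measure the spread between these samples. In these bulk samples, fewer cells of a kind and less RNA of a gene per cell cannot be told apart.

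The co-activators differed from each other. Yap1 (ENSMUSG00000053110, chr9:7931999-8004596, minus strand), the main effector of the pathway, ranged from 212 to 244 CPM on soft (median 221) and from 208 to 227 CPM on stiff gels (median 218). The 2 ranges overlapped, and the highest library of all was a soft one. The averaged log2 difference was 0.03 ± 0.03 (SE), with an adjusted p of 0.724 and an interval of -0.04 to 0.09 (95%, not adjusted, as all intervals of log2 differences here). At single AHA concentrations the log2 difference of Yap1 lay between 0.0012 and 0.06 and was not called. Of the Yap1 exon length, 1.25% lies opposite exons of Gm20416, and whether reads were counted by strand is not given in the sources used here.

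Wwtr1 (ENSMUSG00000027803, chr3:57455649-57575910, minus strand), which encodes TAZ, was called lower on soft gels at low AHA and was not called at mid or high AHA. At low AHA its CPM was 57.2, 58.1 and 55.7 on soft and 68.0, 72.7 and 71.9 on stiff gels. Every soft library was below every stiff one there, and the log2 difference of -0.31 ± 0.09 was called (adjusted p = 0.0239). Leaving out any of 5 single libraries of these 2 groups (soft replicates 1, 2 and 3, stiff replicates 2 and 3) ended this call, with log2 differences of -0.32 to -0.29 and an adjusted p of up to 0.112. At mid AHA the CPM was 57.5, 58.0 and 60.0 on soft and 69.8, 59.4 and 57.7 on stiff gels, which overlapped. At high AHA it was 66.7 and 64.4 on soft and 64.9, 66.0 and 63.8 on stiff gels, which overlapped as well. The log2 differences at mid and high AHA were -0.09 ± 0.09 and 0.02 ± 0.10 and were not called (adjusted p = 0.756 and 0.981). A test that the 3 differences are equal gave an unadjusted p of 0.0372 and an adjusted p of 0.729, so a change of the stiffness difference with AHA was not shown. The averaged difference of -0.13 ± 0.05 was not called (adjusted p = 0.129, interval -0.23 to -0.02).

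Among the TEAD genes, 3 of 4 were called lower on soft and Tead2 was not called. Tead1 (ENSMUSG00000055320, chr7:112679318-112906807, plus strand), the TEAD gene with the highest CPM here, ranged from 315 to 345 CPM on soft (median 329) and from 321 to 387 CPM on stiff gels (median 357). Of the 9 stiff libraries, 6 were above every soft library, and 3 soft libraries were below every stiff one. The averaged log2 difference was -0.13 ± 0.03 (adjusted p = 0.000458). It was similar in size at each AHA concentration, at -0.15, -0.11 and -0.12 at low, mid and high AHA. The call at low AHA (adjusted p = 0.0469) was lost in 12 of 27 alternatives. These were DESeq2 (0.0959), library totals without scaling (0.0836), no robust fit (0.0729), no filter (0.0702), all annotated genes (0.0528) and the removal of any of 7 single libraries, up to an adjusted p of 0.234 without stiff, low AHA replicate 2.

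Tead2 (ENSMUSG00000030796, chr7:45215753-45233644, plus strand), a TEAD gene of the early embryo, ranged from 91.8 to 106 CPM on soft (median 102) and from 92.7 to 108 CPM on stiff gels (median 96.8). The ranges covered nearly the same span. Its averaged log2 difference was 0.02 ± 0.04 (adjusted p = 0.831, interval -0.06 to 0.11).

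Tead3 and Tead4 were lower on soft gels by nearly the same amount. Tead3 (ENSMUSG00000002249, chr17:28331671-28350817, minus strand) ranged from 25.8 to 32.6 CPM on soft (median 30.05) and from 30.6 to 41.0 CPM on stiff gels (median 33.4), and 6 of 8 soft libraries were below every stiff one. Its averaged log2 difference was -0.24 ± 0.07 (adjusted p = 0.0249). This call was lost without any of 5 single libraries: stiff, mid AHA replicate 1 (adjusted p = 0.110), stiff, high AHA replicate 1 (0.104), soft, low AHA replicate 3 (0.0741), soft, high AHA replicate 2 (0.0585) or soft, mid AHA replicate 3 (0.0542). Leaving out soft, high AHA replicate 2 or 3 besides replicate 1 keeps 1 library in that group, which is then assumed to vary like the other groups. Tead4 (ENSMUSG00000030353, chr6:128224288-128300823, minus strand), needed for trophectoderm in the embryo, ranged from 27.9 to 35.9 CPM on soft (median 32.5) and from 32.8 to 41.5 CPM on stiff gels (median 37.9). Of its 8 soft libraries, 5 were below every stiff one. Its averaged log2 difference was -0.24 ± 0.07 (adjusted p = 0.0181), and the call was lost without soft, high AHA replicate 3 (0.0847), stiff, mid AHA replicate 2 (0.0751) or stiff, low AHA replicate 3 (0.0580). Neither gene was called at a single AHA concentration, where log2 differences ran from -0.30 to -0.16 for Tead3 and from -0.34 to -0.14 for Tead4.

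Shares of the TEAD pool overlapped between the gels for Tead1, Tead3 and Tead4 and did not overlap for Tead2. Taken as a share of the summed CPM per kb of Tead1 to Tead4, Tead1 held 41.4% ± 0.755 in the 8 soft and 42.2% ± 1.56 in the 9 stiff libraries (mean ± SD). Tead2 held 35.9% ± 1.12 and 32.9% ± 1.11. Its share was 34.3 to 37.3% in the soft and 31.1 to 34.0% in the stiff libraries, with no overlap, although its own CPM overlapped. Tead4 held 15.2% ± 1.56 and 16.6% ± 1.49, and Tead3 held 7.53% ± 0.522 and 8.29% ± 0.741. The shares were not tested, because they are built from the CPM values above and sum to a fixed total.

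**Figure D2:**
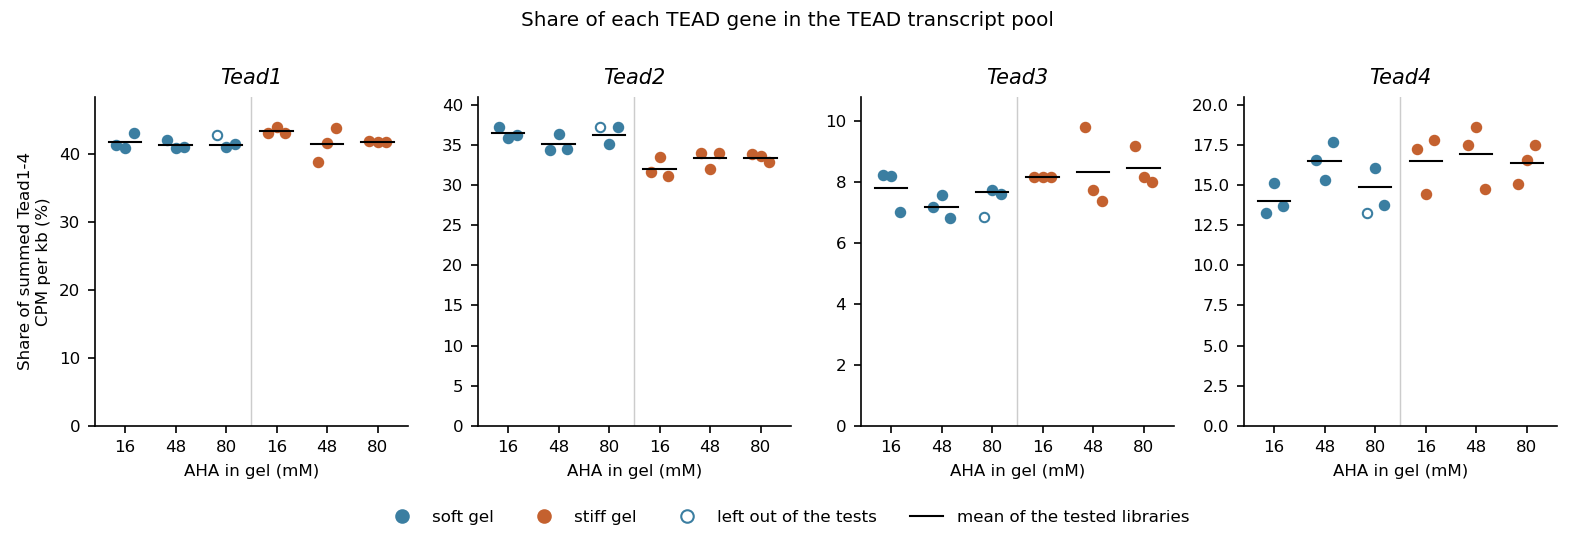
Share of each TEAD gene in the summed CPM per kb of Tead1 to Tead4, in percent (y axis, from 0, a scale for each gene), by AHA concentration in mM (x axis). Points are libraries (blue soft, orange stiff, open left out) and bars are means of the tested libraries. The Tead2 share is 34.3 to 37.3% in the tested soft and 31.1 to 34.0% in the stiff libraries.

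Of the 2 kinases that phosphorylate YAP and TAZ, Lats2 was lower on soft gels and Lats1 was not called. Lats2 (ENSMUSG00000021959, chr14:57689662-57758388, minus strand) had 28.1, 34.7 and 31.6 CPM on soft and 41.2, 42.9 and 38.7 CPM on stiff gels at low AHA. At mid AHA it had 25.0, 26.7 and 27.5 CPM on soft and 41.2, 40.8 and 40.1 CPM on stiff gels. At high AHA it had 32.3 and 31.1 CPM on soft and 37.8, 32.8 and 33.2 CPM on stiff gels. Within each AHA concentration all tested soft libraries were below all stiff ones, and over all AHA concentrations 7 of 8 soft libraries were below every stiff one, the exception being soft, low AHA replicate 2. The soft, high AHA library that was left out had 34.8 CPM, above 2 of the 3 stiff libraries with high AHA.

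The averaged log2 difference of Lats2 was -0.38 ± 0.07 (adjusted p = 2.44e-05), a fall by 23.0%. The difference was called at mid AHA (-0.63 ± 0.12, adjusted p = 0.000105), and it was not called at low AHA (-0.37 ± 0.12, adjusted p = 0.0569) or at high AHA (-0.13 ± 0.13, adjusted p = 0.816, interval -0.39 to 0.13). A test that the 3 differences are equal gave an unadjusted p of 0.0230 and an adjusted p of 0.721, so the 3 were not shown to differ. The call of the average held in all 26 alternatives, with an adjusted p of at most 0.000234. Of the Lats2 exon length, 42.4% is shared with Gm49361 on the same strand, which is not a row of the count table, so counts of the 2 cannot be told apart in these exons.

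Lats1 (ENSMUSG00000040021, chr10:7681214-7716460, plus strand) ranged from 36.5 to 44.6 CPM on soft (median 38.9) and from 36.2 to 46.8 CPM on stiff gels (median 44.1), and the lowest library of all was a stiff one. Its averaged log2 difference was -0.11 ± 0.07 (adjusted p = 0.337, interval -0.24 to 0.02).

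The angiomotins bind YAP and hold it in the cytoplasm or at junctions and actin. Amotl2 (ENSMUSG00000032531, chr9:102716672-102733418, plus strand) had 423, 433 and 435 CPM on soft and 494, 505 and 503 CPM on stiff gels at low AHA. At mid AHA it had 417, 418 and 406 CPM on soft and 498, 501 and 487 CPM on stiff gels. At high AHA it had 464 and 416 CPM on soft and 520, 472 and 499 CPM on stiff gels. No soft library reached any stiff library, and the soft, high AHA library that was left out had 396 CPM, the lowest of all 18. Amotl2 was the only one of the 10 genes without overlap, as were 1.27% of all tested genes.

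The averaged log2 difference of Amotl2 was -0.22 ± 0.03 (adjusted p = 4.05e-12), a fall by 14.0%, and it was called in all 26 alternatives with an adjusted p of at most 4.40e-09. It was the only one of the 10 genes called at all 3 AHA concentrations, with -0.22 ± 0.04 at low (adjusted p = 0.000141), -0.26 ± 0.04 at mid (2.62e-06) and -0.18 ± 0.05 at high AHA (0.0383). The call at high AHA was lost in 9 of 27 alternatives. These were the fit without the filter on low counts (adjusted p = 0.0557), with all annotated genes (0.0591), without the robust fit (0.0645) and with the 2 groups alone (0.120), and 5 that left out 1 library. It was lost without soft, high AHA replicate 3 (log2 difference -0.10, adjusted p = 0.621, with 1 library kept in that soft group), stiff, high AHA replicate 1 (0.217) or stiff, high AHA replicate 3 (0.112), and narrowly without soft, low AHA replicate 3 (0.0504) or stiff, low AHA replicate 3 (0.0508). Without soft, high AHA replicate 2 the difference was -0.27 (adjusted p = 0.00797, again with 1 library kept in that soft group). With the left-out library kept, the difference at high AHA was -0.29 in place of replicate 2 (adjusted p = 2.63e-06) and -0.21 in place of replicate 3 (0.00310), so its size depended on which soft libraries were kept.

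Amot (ENSMUSG00000041688, chrX:145446425-145505181, minus strand), the founding angiomotin, ranged from 66.9 to 84.3 CPM on soft (median 79.4) and from 76.5 to 99.5 CPM on stiff gels (median 82.9). The ranges overlapped, and 2 soft libraries were below every stiff one. Its averaged log2 difference was -0.11 ± 0.05 (adjusted p = 0.156, interval -0.21 to -0.02). Without stiff, mid AHA replicate 1, its highest library, the difference was -0.07 (adjusted p = 0.477). It was called when soft, high AHA replicate 2 (adjusted p = 0.0427) or 3 (0.0451) was left out in place of replicate 1.

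By AHA concentration, 3 of the 10 genes were called lower on soft at low AHA (Wwtr1, Tead1 and Amotl2), 2 at mid AHA (Lats2 and Amotl2) and 1 at high AHA (Amotl2), and 0 were called higher. Of all tested genes 3.04, 2.86 and 0.841% were called in either direction at low, mid and high AHA. Called lower were 2.19, 1.85 and 0.432%, and called higher 0.848, 1.01 and 0.409%. The median of the log2 differences of the 10 genes was -0.18, -0.13 and -0.09 at the 3 concentrations, against 0.0042, -0.00071 and -0.0023 over all tested genes. The group with high AHA on soft gels had 2 tested libraries and the others 3. The plot of log2 differences shows the overlap of the intervals of a gene between AHA concentrations.

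**Figure D3:**
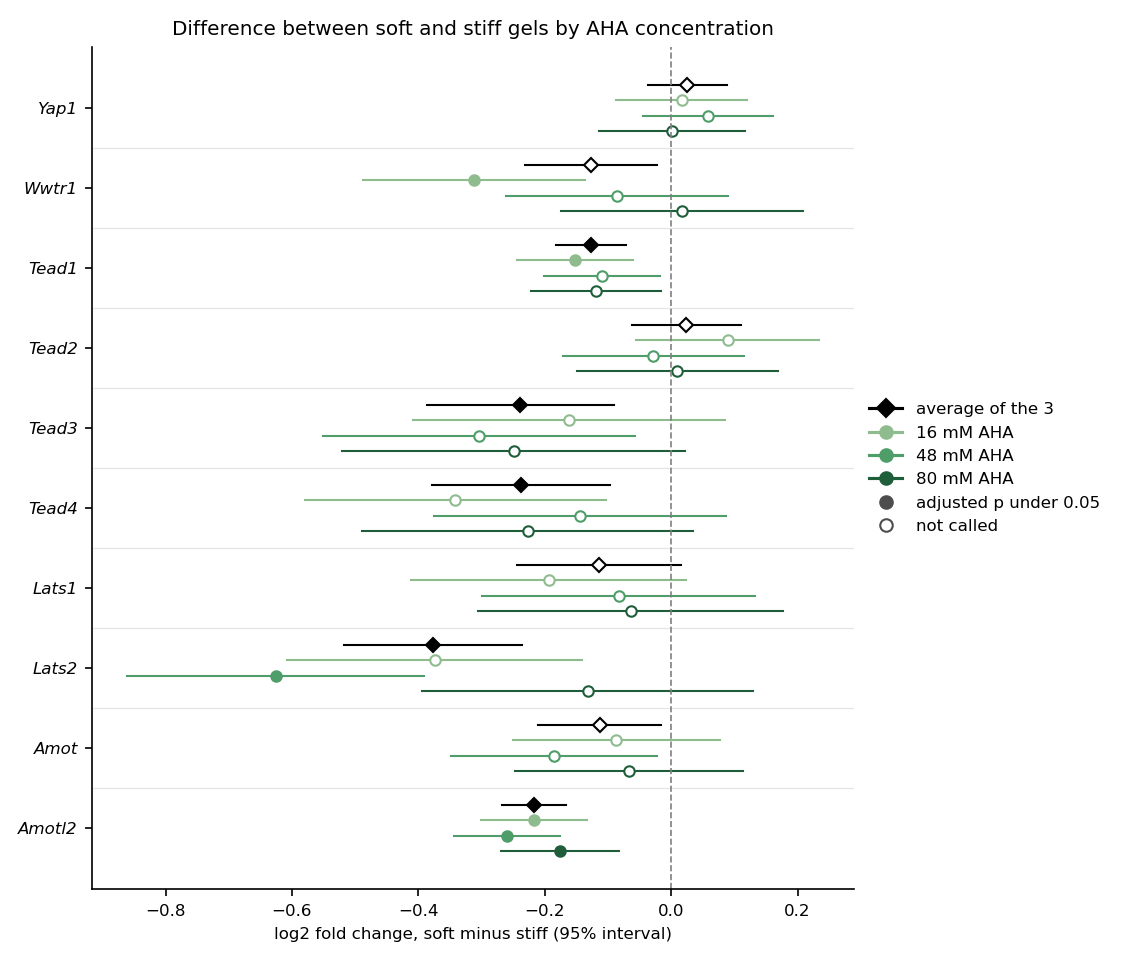
log2 fold change, soft minus stiff (x axis), of each of the 10 genes (y axis) with 95% intervals that are not adjusted for multiple tests. Black diamonds are the average over AHA, green circles the differences at 16, 48 and 80 mM AHA, and filled symbols have an adjusted p under 0.05. Filled diamonds are seen for 5 genes, all left of 0, and Amotl2 is filled at each concentration.

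No difference between AHA concentrations passed the test in any of these transcripts. In each of the 6 comparisons of AHA concentrations on soft or on stiff gels and in high minus low AHA averaged over both, 0 of the 10 genes were called by edgeR, and 0 by DESeq2. At an unadjusted p under 0.05 there were 0 to 2 of the 10 genes per comparison, which were Wwtr1, Tead1 and Lats2, and 4.99 to 8.64% of all tested genes. Few genes were called at all: 0.112% of the tested genes in high minus low AHA averaged over stiffness, 0.253% in high minus low and 0.067% in high minus mid AHA on soft, 0.00744% in high minus low and in high minus mid AHA on stiff, and 0% in mid minus low AHA on either gel. Lats2 was lower at mid than at low AHA on soft by -0.26 ± 0.12 (unadjusted p = 0.0370, adjusted p = 0.811) and lower at high than at low AHA on stiff by -0.23 ± 0.12 (0.0472, adjusted p = 0.819). In the opposite direction, it had a log2 difference of 0.27 ± 0.13 in high minus mid AHA on soft (unadjusted p = 0.0493, adjusted p = 0.727). None of these 3 differences passed the test. Wwtr1 had a log2 difference of 0.20 ± 0.10 in high minus low AHA on soft (0.0403, adjusted p = 0.557). In mid minus low AHA on stiff, Tead1 had a log2 difference of -0.10 ± 0.05 (0.0300, adjusted p = 0.975) and Wwtr1 one of -0.19 ± 0.09 (0.0348, adjusted p = 0.975). In high minus low AHA averaged over stiffness the log2 differences of the 10 genes ran from -0.11 (Lats2, interval -0.29 to 0.06) to 0.04 (Wwtr1, interval -0.09 to 0.17). For Amotl2, the interval of that difference was -0.05 to 0.08. In the test that the 3 soft minus stiff differences are equal, 0 of the 10 genes and 0.0298% of all genes were called, and 2 of the 10 (Wwtr1 and Lats2) and 6.71% of all genes had an unadjusted p under 0.05.

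Because both members of a pair are read from the same library, the log2 ratio of 2 paralogues shows their balance without any scaling between libraries. The 3 pairs among the 10 genes were compared between the 8 soft and 9 stiff libraries. This was a two-sided exact permutation test of the difference in means over 24310 assignments, with adjustment over the 3 pairs. Libraries were pooled over AHA, with 2 soft and 3 stiff ones at high AHA. The concentrations were thus not weighted equally, unlike in the averaged comparison. The ratio of Lats2 over Lats1 was -0.43 ± 0.17 (SD) on soft and -0.15 ± 0.15 on stiff gels, a difference of -0.28 (exact permutation p = 0.00280, adjusted p = 0.00839), and 5 of 8 soft libraries were below every stiff one. The difference was -0.19, -0.55 and -0.07 at low, mid and high AHA. The ratio of Wwtr1 over Yap1 was -1.90 ± 0.13 on soft and -1.73 ± 0.11 on stiff gels, a difference of -0.17 (exact permutation p = 0.0118, adjusted p = 0.0176). At low and mid AHA the difference was -0.33 and -0.14 and all 3 soft libraries were below all 3 stiff ones, while at high AHA it was 0.01. On soft gels the mean ratio was -1.97, -1.96 and -1.72 at low, mid and high AHA. The pooled difference of Wwtr1 over Yap1 therefore depends on the number of libraries at each concentration. The ratio of Amotl2 over Amot was 2.47 ± 0.12 on soft and 2.57 ± 0.12 on stiff gels, a difference of -0.10 (exact permutation p = 0.0893, adjusted p = 0.0893), which did not pass the test. It passed without stiff, mid AHA replicate 1 (-0.14, adjusted p = 0.0199) or without soft, mid AHA replicate 1 (-0.13, adjusted p = 0.0400). The ratios use the counts of the genes above and are not independent of their tests.

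**Figure D4:**
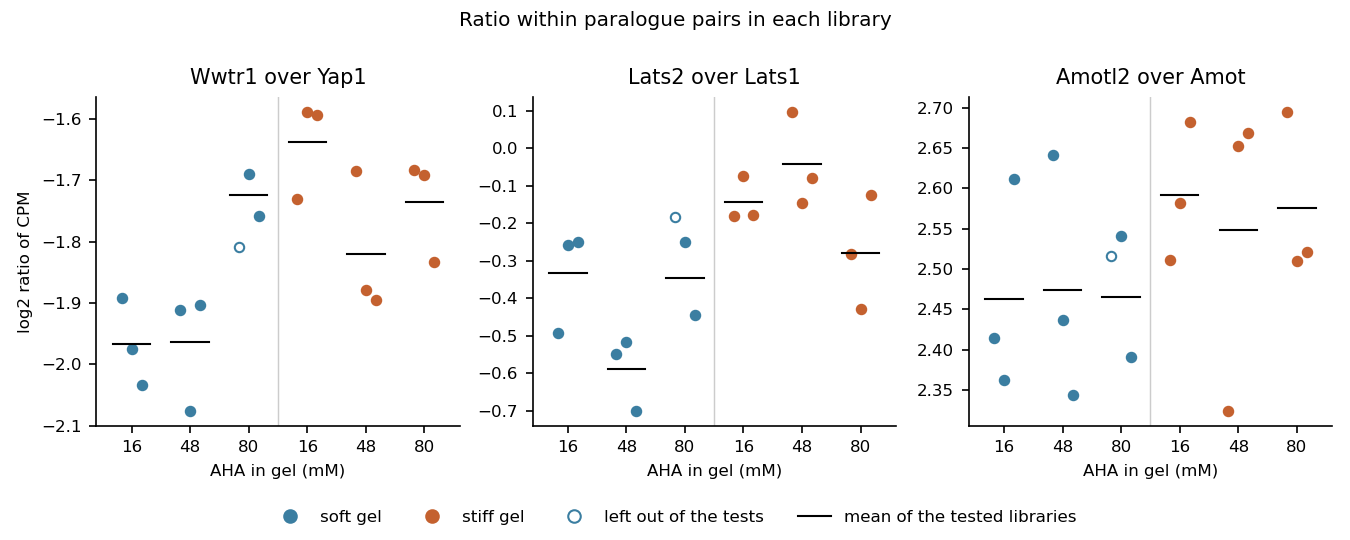
log2 ratio of CPM within 3 pairs of paralogues (y axis, not starting at 0, a scale for each pair) by AHA concentration in mM (x axis). Points are libraries (blue soft, orange stiff, open left out) and bars are means of the tested libraries. For Lats2 over Lats1 the 3 soft libraries with mid AHA lie between -0.70 and -0.52 and the 3 stiff ones between -0.15 and 0.10.

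Of 50 other Hippo pathway genes, listed by role, 49 were tested and in the averaged comparison 2 were called higher and 6 lower on soft, where 3.77% of all tested genes were called higher and 4.82% lower. Their median log2 difference was -0.0006. None of the 7 genes of the core cassette (the MST and NDR kinases, Sav1 and the MOB1 adaptors) was called by edgeR or DESeq2, 0 had an unadjusted p under 0.05, and their log2 differences ran from -0.08 to 0.08. Of 15 upstream regulators, 2 were called higher and 1 lower, to be read against the same 3.77% and 4.82%. Nf2, which encodes the tumour suppressor merlin that brings LATS kinases to the membrane, averaged 315 ± 9.07 CPM in the 8 soft and 287 ± 7.25 CPM in the 9 stiff libraries (mean ± SD), and its log2 difference of 0.13 ± 0.03 was called (adjusted p = 0.000245). All 8 soft libraries of Nf2 were above all 9 stiff ones. The other called upstream genes, named after their values were seen, were the kinase gene Map4k4 (0.09) and Wwc1, which encodes the scaffold KIBRA (-0.13).

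Of the 14 tested genes of cofactors and binding proteins of YAP, TAZ and TEAD, 4 were called lower and 0 higher on soft, beside 4.82% called lower among all tested genes. Their median log2 difference was -0.13, and that of all tested genes was 0.0011. Amotl1, the angiomotin not among the 10 genes, had 169 ± 10.0 CPM on soft and 207 ± 14.2 CPM on stiff gels, with a log2 difference of -0.29 ± 0.03 (adjusted p = 1.34e-11). All 8 soft libraries were below all 9 stiff ones, as for Amotl2. Vgll3, which encodes a TEAD-binding cofactor, differed by -0.33 ± 0.05 (adjusted p = 5.49e-08), also without overlap. Ptpn14, a phosphatase gene whose product binds YAP, differed by -0.20 ± 0.03 (adjusted p = 1.69e-06), and Ajuba, a LIM protein gene whose product binds LATS kinases, by -0.14 ± 0.03 (adjusted p = 6.62e-05). Ptpn14 and Ajuba also stand on the target list. Of 13 genes of YAP turnover and the STRIPAK phosphatase complex, Strn3 (-0.17) was the one called, named after its values were seen, while 8.59% of all tested genes were called in either direction, so that the count says nothing of the list.

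Of 22 genes that YAP and TAZ are known to activate, which did not include the 10, 21 were tested. On soft gels 9 were called lower, 0 higher and 12 were not called, where 4.82% of all tested genes were called lower. The log2 difference was below 0 in 20 of the 21, with a median of -0.14, and in 49.7% of all tested genes. This list was chosen with earlier results of these data known, so its direction is not independent evidence. Ccn1, a secreted matricellular protein gene, had 148 ± 9.28 CPM on soft and 192 ± 10.1 CPM on stiff gels, with a log2 difference of -0.38 ± 0.04 (adjusted p = 1.81e-17) and no overlap between the gels. Axl, a receptor tyrosine kinase gene, differed by -0.55 ± 0.07 (3.84e-09) and Dock5, a gene of a Rac exchange factor, by -0.24 ± 0.04 (5.10e-08), both without overlap. Crim1 differed by -0.38 ± 0.06 (1.97e-07) and Tgfb2, a TGF-beta ligand gene, by -0.48 ± 0.08 (8.63e-07). Ccn2, another widely used YAP target, was not called (-0.11 ± 0.05, adjusted p = 0.137), and it is named after its values were seen.

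**Figure D5:**
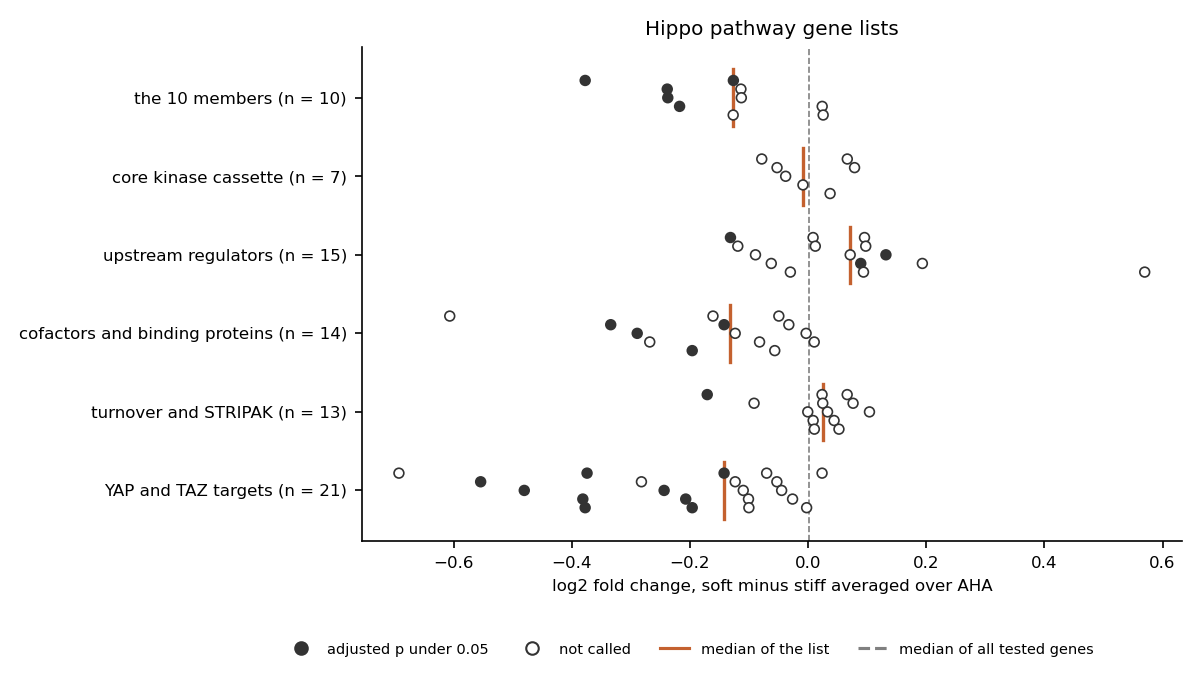
log2 fold change, soft minus stiff averaged over AHA (x axis), of each tested gene in 6 lists (y axis, with the number of genes). Filled points have an adjusted p under 0.05, orange bars are list medians and the dashed line is the median of all tested genes. Filled points of the 10 genes, the cofactors and the targets lie left of the line, and the core kinase cassette has no filled point.

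The genes whose 6 group means were most like those of Amotl2 were Actn4 (alpha-actinin 4), Lasp1 (a LIM and SH3 protein of actin structures) and Actb (beta-actin). Likeness was the root mean square distance between centred group means of log2 CPM, over 6 groups and 10713 genes with a mean of at least 5 CPM. It was 0.0167, 0.0199 and 0.0213, where the group means of Amotl2 themselves varied by 0.112. These genes had averaged log2 differences of -0.20, -0.21 and -0.18. The genes most like Lats2 were 2210011C24Rik (0.0249), Cflar (0.0295) and Jakmip2 (0.0397), where Lats2 itself varied by 0.220. These 3 had low levels, with means of 6.67, 13.8 and 8.27 CPM, and of them Cflar was called in the averaged comparison (-0.37, adjusted p = 0.0171).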

How the data were processed

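Per the labels and the study's methods, RNA lysates went into pico-input libraries, and the authors trimmed reads with Trim Galore 0.4.4, aligned them to mm10 with GSNAP and counted them per gene with HTSeq. What they deposited were raw counts, not normalised. The 92 ERCC and 7 SIRV rows and 5 summary lines (61.5 to 64.0% of column sums) were kept out of library sizes. Names, lengths and coordinates came from GENCODE M21.

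Protein-coding genes passing filterByExpr (minimum count 10) were fitted with edgeR 4.0.16 (robust quasi-likelihood, TMM, 1 coefficient per group, all 17 kept libraries), with Benjamini-Hochberg adjustment over 13438 genes per comparison and calls at 0.05. SE and intervals came from the F statistic and its degrees of freedom. Ratios were tested with scipy. The fit was tested on simulated counts with a smaller and a larger size of change. It missed many changes of the smaller size, which was near the averaged difference of Amotl2. It recovered nearly all of the larger size, which was near that of Lats2. Changes as small as those of Tead1 and of the genes not called were not simulated. False calls were made somewhat more often than the threshold allows, so calls near the threshold are uncertain. Replicates of a group differed beyond counting noise (chi-square per degree of freedom 1.82 to 3.07). Index pairs follow the group order. The first index of a pair (D701 to D705) was shared between the gels only for D703, while each second index (D501 to D504) occurred on both gels. An effect of the first index and that of stiffness can therefore not be fully told apart, and neither index was tested.

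Members and lists were chosen with earlier results of these data known, the lists from general knowledge. Named were the 10 genes, the 5 called genes with the lowest adjusted p of the pathway and target lists, 3 genes most like each of the 2 members with the lowest adjusted p, and cell markers. Alternatives were DESeq2 1.42.0 and its size factors, no scaling, other gene and library sets, no robust fit, pairwise fits and each library left out.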

Additional observations from a re-analysis of the deposited data

Results flagged for a closer look

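Over the libraries of each gel, the highest and lowest values of each of the 10 genes and of the 3 paralogue ratios were compared with the rest by Dixon's criterion, in 26 sets of 8 or 9 libraries, and chance flags about 1 set in 20. In 2 sets a library stood apart, and both were stiff, mid AHA replicate 1. Amot was at 99.5 CPM in this library, and the next highest stiff library was at 87.0 CPM. Without it the averaged log2 difference of Amot was -0.07 (adjusted p = 0.477), against -0.11. The log2 ratio of Amotl2 over Amot was 2.32 there, against 2.51 in the next lowest stiff library, and it rests on the same Amot value. The stiff set mixes 3 AHA concentrations, and the cause was not tested.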

How the results depend on the processing

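No paired analysis was possible because the labels give no replicate number shared between groups. In the averaged comparison 4 to 5 of the 10 genes were called when each library was left out, 5 with all 18 libraries, with DESeq2, with either other scaling, without the filter, with all annotated genes and without the robust fit. When soft, high AHA replicate 2 or 3 was left out in place of replicate 1, a choice made after seeing the data, 7 and 6 were called. Wwtr1 (adjusted p = 0.0447) and Amot were added by the former and Amot by the latter. Of all tested genes, 10.3 and 9.49% were called in these fits, against 8.59% in the main fit. In the other alternatives this share ran from 6.23% (no filter) to 9.97% (all 18 libraries). No averaged difference of the 10 genes changed sign in 26 alternatives each. At low AHA, leaving out 1 library gave 1 to 3 called genes, 2 were called with library totals, with DESeq2, without the filter, with all annotated genes and without the robust fit, and 4 with only the 2 groups compared. At mid AHA 2 were called in all 27 alternatives. At high AHA, leaving out 1 library gave 0 to 1, and 0 were called without the filter, with all annotated genes, without the robust fit and with only the 2 groups compared; by these 4 the adjusted p of Amotl2 was 0.0557, 0.0591, 0.0645 and 0.120, and the cause was not tested. Comparisons of AHA and the interaction gave 0 in every alternative. Other Hippo genes called ranged from 7 to 11 and targets from 9 to 10. Of the ratios, Lats2 over Lats1 and Wwtr1 over Yap1 passed in all 19 alternatives (adjusted p at most 0.0178 and 0.0370), and that of Amotl2 over Amot ran from -0.14 to -0.087 when each library was left out, passing in 2 of 17. The depth of Tead3, Tead4, Lats1 and Lats2 was 136 to 299 counts in a library.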
